A study of Homo sapiens with 9 samples.

Results

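The 79 genes described here encode nuclear subunits of the mitochondrial oxidative phosphorylation system in AC16 cells. They were chosen by current gene symbol: complex I names made of NDUFA, NDUFB, NDUFC, NDUFS or NDUFV followed by digits alone, SDHA to SDHD, and names that begin with UQCR, COX4I, COX5, COX6, COX7, COX8 or ATP5. Pseudogenes were left out by annotated gene type, and a gene needed at least 10 counts in at least 3 of the 9 libraries. Of the 58299 genes in the deposited table, 206 matched by symbol, of which 117 were pseudogenes, 2 were other noncoding genes and 87 were protein-coding. The count rule kept 79 of these 87 as members, with 36 genes of complex I, 4 of complex II, 9 of complex III, 12 of complex IV and 18 of complex V. NDUFA4 was placed with complex IV, where its protein is found, and ATP5IF1, the inhibitor of the ATP synthase, was kept with complex V. At the edge of the count rule, NDUFA7 was inside with 3 to 14 counts per library, and COX6B2 and COX7A1 were outside with at most 9.

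Complexes I and II pass electrons from NADH and succinate to ubiquinone, complex III passes them on to cytochrome c, and complex IV hands them to oxygen. Complexes I, III and IV pump protons while doing so, and complex V, the ATP synthase, uses the returning protons to make ATP. Each complex except complex II joins subunits encoded in mitochondrial DNA to nuclear-encoded ones, and the nuclear-encoded set holds both core subunits and many small accessory ones. Heart muscle relies on this system for most of its ATP.

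AC16 is a human line obtained by fusion of primary heart ventricle cells with an SV40-immortalised fibroblast line. The groups were cells given 100 nM CDDO-Me for 72 h, cells given 100 nM CDDO-Me for 24 h, and cells given 0.1% DMSO for 72 h, with 3 libraries each. CDDO-Me, also called bardoxolone methyl, is a man-made triterpenoid that modifies KEAP1 and so releases NRF2, the product of NFE2L2 and an activator of antioxidant genes. The design text writes CDDO for the 72 h agent, but its treatment label reads CDDO-Me, and the treated libraries were read as such. The vehicle libraries are all of 72 h, which means that 24 h against DMSO compares culture times as well as treatments. Whether libraries of a group came from separate cultures is not in the labels, and p-values therefore cover the spread among these libraries, which may be technical.

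Total counts were 18801683 to 20704953 per library at 72 h, 16898977 to 27910031 at 24 h and 19382833 to 20570568 in DMSO. The table holds no mitochondrial gene, so the subunits encoded in mitochondrial DNA were not analysed here. Among the 24 h libraries, replicate 3 was unlike replicates 1 and 2, with a chi-square over its degrees of freedom of 40.8 and 38.6 across genes, against 5.01 between the other two. DMSO replicate 1 stood apart from replicates 2 and 3 by 14.7 and 18.7, against 8.81 between those. The 72 h libraries lay close together (2.09 to 2.32). NQO1, a standard NRF2 target, averaged 3348 ± 40.5 CPM (counts scaled to library size) at 72 h, 1879 ± 255.9 CPM at 24 h and 449.2 ± 40.3 CPM in DMSO (SD, n = 3 each). Of 10 heart muscle marker genes, only TTN reached a mean of 1 CPM, and MYH6, MYH7, PLN and RYR2 were at 0 in all libraries; all 8 fibroblast markers were above 1 CPM. Of these 8, 3 fell at 72 h against DMSO: POSTN by 3.33, FAP by 1.28 and PDGFRA by 0.76 on the log2 scale (adjusted p = 1.17e-07, 0.0294 and 0.0376). By the same test 0 were higher, while 4 of the 8 were above 0 and their median was -0.07. Of all genes, 3.13% were called lower. Summed fibroblast markers were 13539 to 13937 CPM at 72 h, 9723 to 15077 CPM at 24 h and 11551 to 13248 CPM in DMSO. Summed epithelial markers were 128 to 136.9 CPM at 72 h, 154 to 221.4 CPM at 24 h and 225 to 268.9 CPM in DMSO. A list of 6 nuclear-retained RNAs had medians of -0.44, -0.52 and -0.51 (log2, relative to the DMSO mean) in the 72 h libraries, 0.23, 0.56 and -0.61 in the 24 h libraries and 0.40, -0.20 and -0.27 in the DMSO libraries. The part of these differences in the results below was not tested.

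After 72 h of CDDO-Me, transcripts of the nuclear subunits were slightly higher than in DMSO in most genes of all 5 complexes, and 9 of them passed the test: NDUFB2 and NDUFB4 of complex I, SDHA of complex II, UQCRQ of complex III, COX5B, COX6C and COX7A2 of complex IV, and ATP5F1E and ATP5MK of complex V. All 9 rose, by 1.20-fold to 1.32-fold, and none fell. The test was edgeR's quasi-likelihood test with Benjamini-Hochberg adjustment over 14965 genes, and a gene was called at an adjusted p under 0.05; 78 members were tested, since NDUFA7 was too low. The 9 of 78 members called higher are 11.5%, beside 2.89% of all genes tested (3.13% were called lower and 6.02% in either direction). The median log2 fold change of the 78 was 0.17, against -0.0009 for all genes, and 72 of the 78 were above 0, beside 49.8% of all genes. Without adjustment, 35 members were higher and 0 lower at p under 0.05 (9.1% of all genes higher), and in 40 members every 72 h library was above every DMSO library (15.5% of all genes). In bulk RNA, more cells with these transcripts and more of them per cell cannot be told apart.

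The shift was seen library by library. Relative to the DMSO mean, the median over the 78 tested members was 0.16, 0.16 and 0.22 (log2) in the 72 h libraries, 0.02, 0.04 and 0.06 in the 24 h libraries and -0.01, -0.03 and 0.05 in the DMSO libraries. The 72 h libraries lay above the rest without overlap, and the 24 h libraries ran from within the DMSO range to just above it. The members took 0.683%, 0.684% and 0.691% of all counts in the 72 h libraries, 0.635%, 0.645% and 0.637% in the 24 h libraries and 0.601%, 0.594% and 0.654% in the DMSO libraries. Summed over members, their level was 6887 ± 42.2 CPM at 72 h, 6333 ± 139.4 CPM at 24 h and 6212 ± 265.8 CPM in DMSO (SD, n = 3 each). DMSO replicate 3 had the largest share of its group, above that of all 24 h libraries and below that of all 72 h libraries.

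**Figure D1:**
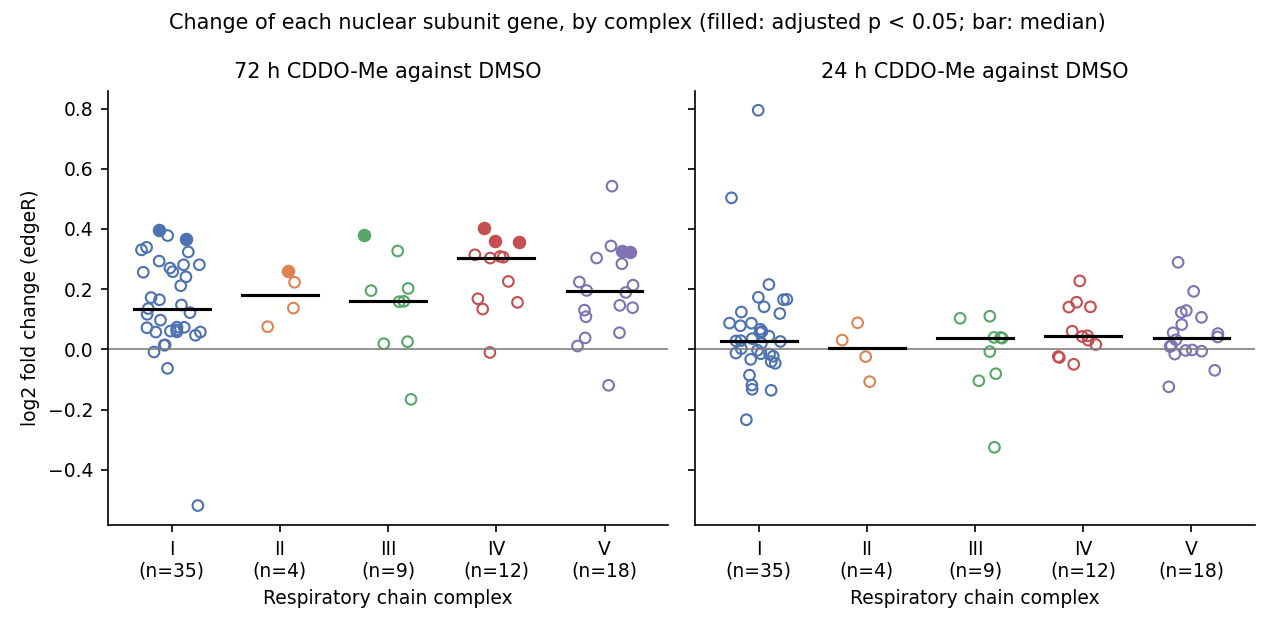
Log2 fold change (edgeR) of each of the 78 tested subunit genes, by respiratory chain complex, for 72 h CDDO-Me against DMSO (left) and 24 h CDDO-Me against DMSO (right); filled points passed an adjusted p of 0.05 and bars are medians. At 72 h the medians lie between 0.14 and 0.30 and 9 points are filled, and at 24 h the medians lie between 0.0031 and 0.04 and no point is filled.

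The number of calls at 72 h depended on single libraries, while the sign of the members' median did not. Without 72 h replicates 1, 2 and 3 there were 0, 3 and 0 calls, in fits that called 2.62%, 2.75% and 2.61% of all genes in either direction. Without DMSO replicates 1, 2 and 3 there were 4, 1 and 14 calls, beside 4.75%, 3.14% and 5.21% of all genes. Without 24 h replicate 3 there were 27, beside 12.9% of all genes. Every call in these fits was of a higher gene. The median log2 fold change of the members stayed between 0.14 and 0.22 over the 19 alternatives tried. Without both DMSO replicate 1 and 24 h replicate 3, the libraries that stood apart, 29 members were called higher and 0 lower, among them all 9, in a fit that called 17.9% of all genes.

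For 5 of the 9 called genes, the sequence from 250 bases before the start to 30 bases after it is printed where the gene is described. These promoters hold matches to a motif of NRF1 (nuclear respiratory factor 1, which is not the NRF2 of NFE2L2) or of ETS factors such as GABP, both known activators of human respiratory chain promoters. The 5 were picked for such a match, and the windows of the called genes NDUFB2, COX7A2 and ATP5F1E held no match to either motif. A link between the motifs and the rise was not tested. Sequences and starts are those of RefSeq on GRCh38.p14, written 5′ to 3′ on the gene's strand, with matches in capitals. The motifs, searched on both strands, were GCGC, any base and TGCGC for NRF1, and CCGGAAG for ETS. Positions of matches give the first base of the match, where -1 is the base before the start.

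Complex I, the NADH dehydrogenase, had a median of 0.14 at 72 h over 35 tested genes. In it 2 genes were called higher (5.71%, beside 2.89% of all genes). Without adjustment 11 were higher (9.1% of all genes), and 32 were above 0 (49.8% of all genes). NDUFB4, an accessory subunit of the membrane arm (ENSG00000065518, chromosome 3, 120596309 to 120602500), had 57.9, 63.5 and 62.4 CPM at 72 h, 47.9, 52.0 and 61.8 CPM at 24 h and 46.1, 45.8 and 47.7 CPM in DMSO. All treated libraries were above all DMSO libraries, and the third 24 h library lay within the 72 h range. At 72 h its log2 fold change was 0.40 ± 0.10 (SE, 1.32-fold, adjusted p = 0.0246), and the call held in 3 of the 9 fits that left out 1 library, with an adjusted p of up to 0.125 without 72 h replicate 2. Its promoter at chr3:120596086-120596365 (plus strand) holds 3 NRF1 motif matches, at -159, -63 and -8:
NDUFB4: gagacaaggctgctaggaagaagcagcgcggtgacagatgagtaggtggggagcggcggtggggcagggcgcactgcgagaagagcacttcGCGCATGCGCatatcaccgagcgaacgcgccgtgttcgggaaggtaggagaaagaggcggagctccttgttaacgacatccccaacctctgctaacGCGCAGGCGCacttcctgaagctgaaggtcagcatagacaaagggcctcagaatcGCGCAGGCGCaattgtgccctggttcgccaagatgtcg

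NDUFB2, another accessory subunit of the membrane arm (ENSG00000090266, chromosome 7, 140690777 to 140722790), had 57.1, 53.5 and 59.2 CPM at 72 h, 47.0, 49.4 and 48.8 CPM at 24 h and 45.2, 41.8 and 44.6 CPM in DMSO. The 3 groups did not overlap, with 24 h between the others. Against DMSO the 72 h libraries were higher by 0.37 ± 0.08 (log2, 1.29-fold, adjusted p = 0.0135), and the call held in 6 of 9 fits without 1 library (highest adjusted p 0.104). Of its coding bases, 45.5% also lie in exons of BRAF on the opposite strand, and the library kit does not keep the strand, so reads of both genes cannot be told apart there. Other accessory genes had like changes without passing the test: NDUFS4 was at 0.32 ± 0.10 (adjusted p = 0.0684), NDUFB7 at 0.29 ± 0.09 (0.069), NDUFB6 at 0.28 ± 0.09 (0.0787) and NDUFA6 at 0.24 ± 0.08 (0.0886). NDUFS5, a small accessory subunit with the highest length-scaled level of the complex, had 117.6, 123 and 127 CPM at 72 h, 96.6, 102.8 and 114.4 CPM at 24 h and 102.1, 97.8 and 107.9 CPM in DMSO. Its 72 h libraries were above all others (0.26 ± 0.08, adjusted p = 0.0774).

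The 7 core subunits of complex I in the list, which include the carriers of the flavin and the iron-sulphur clusters, had a median of 0.06 at 72 h, beside 0.17 for the 28 tested accessory subunits, and none of the 7 was called. NDUFS1, the large iron-sulphur subunit, averaged 165.4 ± 0.915 CPM at 72 h, 155 ± 11.7 CPM at 24 h and 160.1 ± 15.3 CPM in DMSO, and its groups overlapped. NDUFV1, which binds NADH, averaged 129.6 ± 3.18 CPM at 72 h, 131.2 ± 9.58 CPM at 24 h and 117 ± 10.3 CPM in DMSO (72 h against DMSO 0.15 ± 0.08, adjusted p = 0.366). NDUFV2, its iron-sulphur partner, had the change farthest from the median of the complex (-0.52 ± 0.48, adjusted p = 0.624), on 9, 14 and 5 counts at 72 h, 6, 12 and 24 at 24 h and 12, 15 and 14 in DMSO. Such counts leave a wide error, and 91.2% of its coding bases also lie in exons of another gene of the table.

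Complex II, succinate dehydrogenase, is wholly nuclear-encoded, and its 4 genes were all above 0 at 72 h with a median of 0.18. SDHA alone was called, 1 gene of 4, beside 2.89% of all genes called higher. SDHA, the flavoprotein that oxidises succinate (ENSG00000073578, chromosome 5, 218241 to 256700), had 166, 162.5 and 164.1 CPM at 72 h, 151.8, 143.1 and 142.3 CPM at 24 h and 140.3, 131.8 and 139.2 CPM in DMSO. The 3 groups did not overlap, and the 72 h libraries differed among themselves by little. SDHA rose by 0.26 ± 0.07 at 72 h (log2, 1.20-fold, adjusted p = 0.0344) and stood at 0.09 ± 0.07 at 24 h (adjusted p = 0.656). The 72 h call held in 4 of 9 fits without 1 library (highest adjusted p 0.165, without 72 h replicate 1). Its counts are uncertain because 4 rows of SDHA pseudogenes, close copies, held 14.2% of the reads of the gene and its copies together. The SDHA promoter at chr5:218070-218349 (plus strand) holds 4 NRF1 motif matches, at -166, -117, -68 and -19, each 49 bases from the next:
SDHA: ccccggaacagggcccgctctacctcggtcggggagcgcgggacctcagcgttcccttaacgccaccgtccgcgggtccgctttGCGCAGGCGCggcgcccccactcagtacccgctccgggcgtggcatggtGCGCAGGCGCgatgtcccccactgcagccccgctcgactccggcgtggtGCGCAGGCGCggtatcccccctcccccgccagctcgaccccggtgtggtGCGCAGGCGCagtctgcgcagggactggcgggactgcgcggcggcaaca

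SDHC, a membrane anchor that holds part of the quinone site, averaged 142.7 ± 5.95 CPM at 72 h, 124.8 ± 13.7 CPM at 24 h and 122.3 ± 7.18 CPM in DMSO, with 0.22 ± 0.09 at 72 h (adjusted p = 0.162). SDHD, the other anchor, averaged 44.5 ± 1.6 CPM at 72 h, 37.5 ± 3.84 CPM at 24 h and 40.5 ± 5.54 CPM in DMSO. Its log2 fold changes were 0.14 ± 0.11 at 72 h and -0.11 ± 0.11 at 24 h (adjusted p = 0.556 and 0.756). SDHB, the iron-sulphur subunit, averaged 88.5 ± 0.682 CPM at 72 h, 82.5 ± 7.05 CPM at 24 h and 84.0 ± 7.69 CPM in DMSO, with 0.08 ± 0.09 at 72 h (adjusted p = 0.717). In SDHB and SDHD the 72 h and DMSO libraries overlapped.

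Complex III had a median of 0.16 over 9 genes at 72 h, with 1 called higher (11.1%, beside 2.89% of all genes). UQCRQ, a small accessory subunit of the membrane part (ENSG00000164405, chromosome 5, 132866560 to 132868031), had the smallest adjusted p of all members. Its libraries held 77.8, 73.4 and 78.7 CPM at 72 h, 63.8, 61.0 and 65.0 CPM at 24 h and 62.8, 56.4 and 57.5 CPM in DMSO. All 72 h libraries were above all others, and 24 h overlapped DMSO. UQCRQ rose by 0.38 ± 0.08 at 72 h (log2, 1.30-fold, adjusted p = 0.00909), and the call held in 6 of 9 fits without 1 library (highest adjusted p 0.0655). Its promoter at chr5:132866392-132866671 (plus strand) holds 1 ETS motif match, at -54:
UQCRQ: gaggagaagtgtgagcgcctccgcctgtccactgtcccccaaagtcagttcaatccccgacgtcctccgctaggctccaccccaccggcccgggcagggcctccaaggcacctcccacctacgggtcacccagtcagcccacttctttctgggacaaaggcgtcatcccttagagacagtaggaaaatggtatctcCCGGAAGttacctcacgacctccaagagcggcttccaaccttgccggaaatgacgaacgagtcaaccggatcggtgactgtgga

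The 3 core genes of the list for complex III, UQCRC1, UQCRC2 and the Rieske iron-sulphur protein gene UQCRFS1, were at 0.16 ± 0.07, 0.03 ± 0.08 and 0.02 ± 0.10 at 72 h, and none passed. UQCRB, a small subunit at the quinone pocket, had 89.3, 84.1 and 92.4 CPM at 72 h, 73.0, 82.4 and 73.3 CPM at 24 h and 60.8, 67.3 and 83.7 CPM in DMSO (72 h against DMSO 0.33 ± 0.11, adjusted p = 0.0897). DMSO replicate 3 came within 1 CPM of the lowest 72 h library. UQCRH, the hinge protein gene, averaged 115.6 ± 5.19 CPM at 72 h, 106.4 ± 2.31 CPM at 24 h and 103.5 ± 12.4 CPM in DMSO (0.16 ± 0.09 at 72 h, adjusted p = 0.348). Its copy UQCRHL was at 0.766 ± 0.388 CPM at 72 h, 0.691 ± 0.0570 CPM at 24 h and 0.866 ± 0.179 CPM in DMSO, and as a close copy of UQCRH its few reads are uncertain.

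Complex IV, cytochrome c oxidase, had the largest median of the 5 complexes at 72 h, 0.30 over 12 genes. In it 3 genes were called higher (25%, beside 2.89% of all genes), and 8 were higher without adjustment (9.1% of all genes). In 9 of the 12, all 72 h libraries were above all DMSO libraries (15.5% of all genes). All its nuclear subunits are accessory, since the catalytic core is encoded in mitochondrial DNA. COX5B, a zinc-binding subunit on the matrix side (ENSG00000135940, chromosome 2, 97646040 to 97648383), had 106.6, 97.8 and 103.4 CPM at 72 h, 97.6, 85.6 and 81.3 CPM at 24 h and 76.9, 82.2 and 80.6 CPM in DMSO. The 72 h libraries were all above DMSO, and 24 h replicate 1 lay just below them. COX5B rose by 0.36 ± 0.08 at 72 h (log2, 1.28-fold, adjusted p = 0.0166), and the call held in 6 of 9 fits without 1 library (highest adjusted p 0.109). The COX5B promoter at chr2:97645812-97646091 (plus strand) holds 2 ETS motif matches, at -37 and -5:
COX5B: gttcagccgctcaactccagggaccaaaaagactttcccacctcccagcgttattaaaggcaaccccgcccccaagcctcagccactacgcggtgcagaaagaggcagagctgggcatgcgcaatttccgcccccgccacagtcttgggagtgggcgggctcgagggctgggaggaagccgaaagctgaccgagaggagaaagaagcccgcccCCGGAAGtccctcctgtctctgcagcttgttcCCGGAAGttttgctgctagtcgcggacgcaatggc

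COX6C, a small membrane-spanning subunit (ENSG00000164919, chromosome 8, 99873200 to 99894062), had 66.8, 67.4 and 68.2 CPM at 72 h, 57.0, 57.5 and 54.5 CPM at 24 h and 49.0, 44.7 and 59.5 CPM in DMSO. DMSO replicate 3 lay above all 24 h libraries and below all 72 h libraries. The log2 fold change at 72 h was 0.40 ± 0.10 (1.32-fold, adjusted p = 0.0239) and was called in 4 of 9 fits without 1 library, with an adjusted p of 0.123 without DMSO replicate 2. COX7A2, the widely expressed form of subunit 7A (ENSG00000112695, chromosome 6, 75237675 to 75250323), had 75.1, 78.7 and 70.8 CPM at 72 h, 55.1, 61.9 and 62.2 CPM at 24 h and 56.2, 55.4 and 63.9 CPM in DMSO. The 24 h and DMSO libraries of COX7A2 covered nearly the same range, below all 72 h libraries. Its log2 fold change at 72 h was 0.36 ± 0.09 (1.28-fold, adjusted p = 0.0255) and was called in 4 of 9 fits without 1 library (highest adjusted p 0.148).

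Some complex IV subunits have a second gene that is used mainly in particular tissues, and in these cells the partner gene was in each case the one with few or no reads. COX4I1 averaged 257.1 ± 0.501 CPM at 72 h, 237.7 ± 7.59 CPM at 24 h and 230.7 ± 18.8 CPM in DMSO (72 h against DMSO 0.16 ± 0.07, adjusted p = 0.28), while COX4I2 had at most 2 counts in a library. COX6A1 averaged 56.6 ± 2.14 CPM at 72 h, 47.1 ± 7.93 CPM at 24 h and 45.5 ± 0.734 CPM in DMSO (0.31 ± 0.11, adjusted p = 0.112), while COX6A2, the heart and skeletal muscle form, had 0 counts in all 9 libraries. The limit that a count of 0 allows, 3 counts, was 0.145 to 0.16 CPM at 72 h, 0.107 to 0.178 CPM at 24 h and 0.146 to 0.155 CPM in DMSO, for counting error only. COX7A1, the heart and skeletal muscle partner of COX7A2, had 5, 6 and 7 counts at 72 h, 1, 4 and 1 counts at 24 h and 4, 6 and 9 counts in DMSO. COX6B2 had at most 9 counts in a library, and COX7B2 and COX8C had 0 in all 9. Of the coding bases, 100% in COX6B2 and 25.1% in COX6A2 also lie in exons of other genes. The low counts of these 2 genes are therefore given as values of the table only. COX6B1, the partner of COX6B2, averaged 88.9 ± 0.895 CPM at 72 h, 79.3 ± 2.79 CPM at 24 h and 76.0 ± 4.51 CPM in DMSO (0.23 ± 0.07 at 72 h, adjusted p = 0.0952). COX7B averaged 62.2 ± 1.71 CPM at 72 h, 58.8 ± 3.69 CPM at 24 h and 50.2 ± 10.3 CPM in DMSO (0.31 ± 0.12, adjusted p = 0.156). For COX8A the means were 117.9 ± 8.18 CPM at 72 h, 96.5 ± 12.7 CPM at 24 h and 95.4 ± 10.9 CPM in DMSO (0.31 ± 0.11, adjusted p = 0.119). The 72 h libraries of COX6B1 and COX8A were above all DMSO libraries, and those of COX7B overlapped DMSO. COX5A, a matrix-side subunit, stood at -0.01 ± 0.08, the only member of the complex below 0, and COX7A2L, a 7A-like protein of respiratory supercomplexes, at 0.13 ± 0.08 (adjusted p = 0.963 and 0.43).

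Complex V, the ATP synthase, had a median of 0.19 over 18 genes at 72 h. In it 2 genes were called higher (11.1%, beside 2.89% of all genes). Without adjustment 10 were higher (9.1% of all genes), and 17 were above 0 (49.8% of all genes). ATP5F1E, the epsilon subunit of the central stalk (ENSG00000124172, chromosome 20, 59025467 to 59032382), had 102.6, 100.2 and 106.3 CPM at 72 h, 87.8, 92.7 and 88.2 CPM at 24 h and 83.7, 74.2 and 88.8 CPM in DMSO. The 72 h libraries were above all others, and the 24 h libraries overlapped DMSO. ATP5F1E rose by 0.32 ± 0.08 at 72 h (log2, 1.25-fold, adjusted p = 0.0256) and was called in 5 of 9 fits without 1 library (highest adjusted p 0.148). ATP5MK, a small membrane subunit found where ATP synthases pair (ENSG00000173915, chromosome 10, 103389041 to 103396466), had 51.1, 52.9 and 49.2 CPM at 72 h, 41.3, 44.6 and 40.6 CPM at 24 h and 40.9, 39.1 and 42.0 CPM in DMSO. As in COX7A2, the 24 h libraries covered much the same range as DMSO. The log2 fold change of ATP5MK was 0.33 ± 0.08 at 72 h (1.26-fold, adjusted p = 0.0286) and was called in 4 of 9 fits without 1 library (highest adjusted p 0.155). Its promoter at chr10:103396446-103396725 (minus strand) holds 3 ETS motif matches, at -163 and -160, which overlap, and at -3:
ATP5MK: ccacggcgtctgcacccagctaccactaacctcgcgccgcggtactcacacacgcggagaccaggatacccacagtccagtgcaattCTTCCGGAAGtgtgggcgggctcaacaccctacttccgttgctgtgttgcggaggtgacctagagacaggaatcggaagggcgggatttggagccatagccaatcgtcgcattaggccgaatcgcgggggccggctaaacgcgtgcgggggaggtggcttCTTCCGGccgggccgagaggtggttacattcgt

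**Figure D2:**
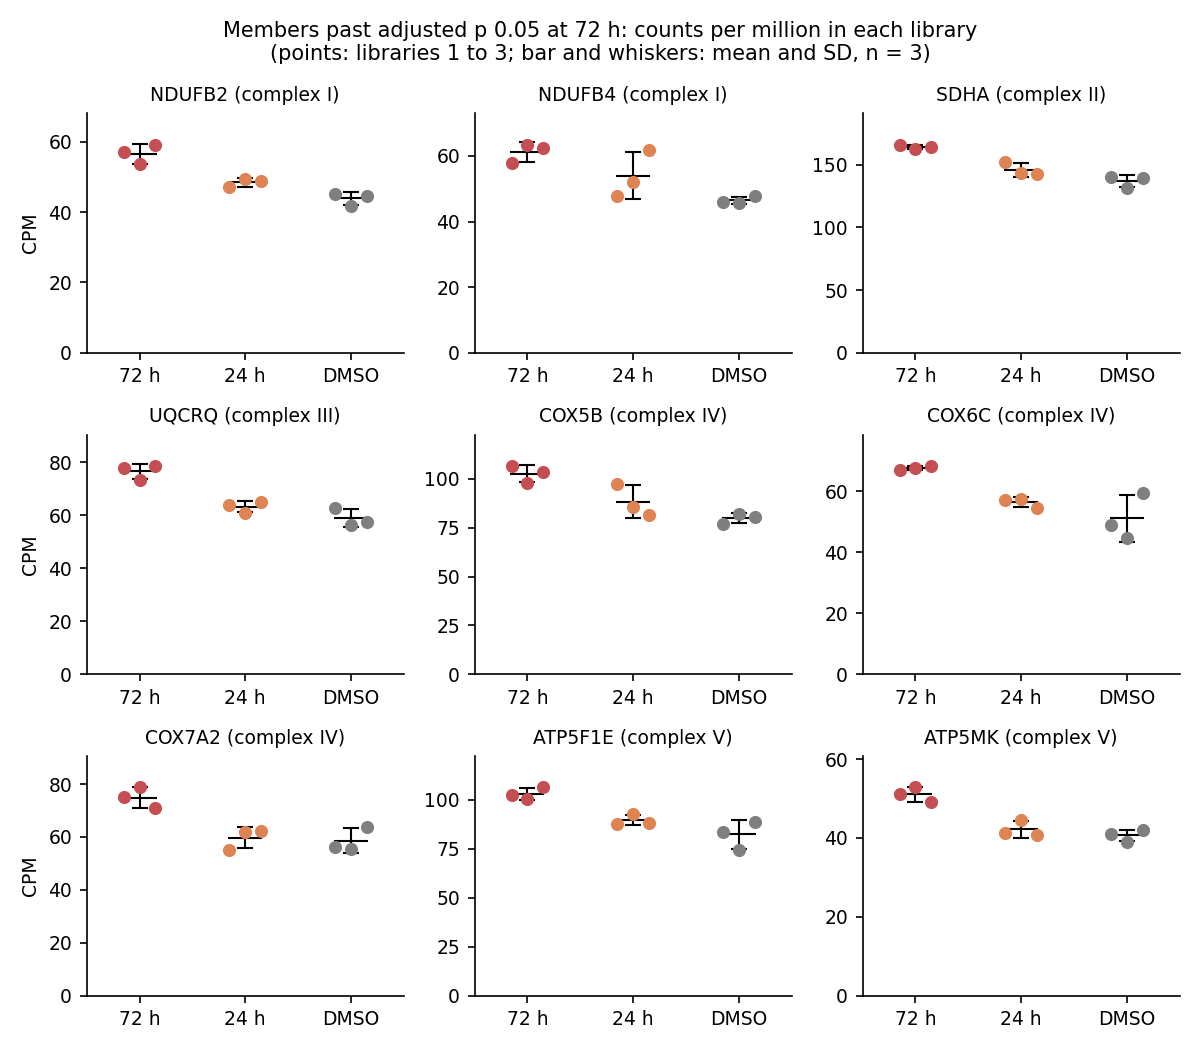
Level in CPM of the 9 members called at 72 h in each library of the 72 h CDDO-Me, 24 h CDDO-Me and DMSO groups; points are libraries, bars and whiskers are mean and SD (n = 3), and each axis starts at 0. In each gene the 3 libraries at 72 h lie above the 3 DMSO libraries, as in SDHA with 162.5 to 166 CPM at 72 h and 131.8 to 140.3 CPM in DMSO.

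Within complex V the 5 small membrane accessory genes had a median of 0.33 at 72 h, and 1 of them, ATP5MK, was called. All 5 had 72 h libraries above all DMSO libraries, beside 15.5% of all genes. ATP5ME, subunit e, had a low level of 8.04, 6.69 and 8.12 CPM at 72 h, 7.63, 6.13 and 5.52 CPM at 24 h and 5.48, 5.63 and 4.6 CPM in DMSO. Its fitted change, the largest of the 78 members at 72 h, was 0.54 ± 0.18 (1.46-fold) and did not pass (adjusted p = 0.0925). Of its coding bases, 44.0% also lie in exons of MYL5 on the other strand. The 5 genes of the F1 head and central stalk had a median of 0.06, with ATP5F1E called. ATP5F1B, the catalytic beta subunit and the member with the highest length-scaled level, had 870.3, 884.5 and 867.5 CPM at 72 h, 829.3, 801.5 and 889.5 CPM at 24 h and 825.1, 803.8 and 894.9 CPM in DMSO, which overlapped (0.06 ± 0.07, adjusted p = 0.764). ATP5F1D, the delta subunit, was the only member with all 72 h libraries below all DMSO libraries: 103.5, 104 and 103 CPM at 72 h, 131.8, 120.2 and 111.3 CPM at 24 h and 119, 114.3 and 104.1 CPM in DMSO. All 24 h libraries were above the 72 h ones too. The difference between 72 h and DMSO was -0.12 ± 0.08 (log2) and did not pass (adjusted p = 0.472); by this count 1 of 78 members was lower without overlap, beside 15.2% of all genes. The 4 peripheral stalk genes had a median of 0.17, led by ATP5PD at 0.30 ± 0.09 (adjusted p = 0.0579). The 3 genes ATP5MC1, ATP5MC2 and ATP5MC3, which encode the same mature c ring protein, stood at 0.19 ± 0.07, 0.13 ± 0.08 and 0.14 ± 0.09.

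After 24 h, no member passed edgeR's test against DMSO, beside 2.15% of all genes tested (0.969% higher and 1.18% lower). The median log2 fold change of the members was 0.03, beside 0.0067 for all genes, and 50 of 78 were above 0, beside 51.4% of all genes. Without adjustment 3 were higher (NDUFB1, NDUFA13 and NDUFB4) and 1 lower (NDUFA12), beside 6.59% of all genes higher and 12.8% in either direction. In 5 members all 24 h libraries were above all DMSO libraries and in 1 below, beside 6.73% and 6.74% of all genes. DESeq2 and limma-voom also called 0, and limma-voom with sample weights called NDUFB1, beside 11.1% of all genes. NDUFB1, a small accessory subunit of complex I, had 8.14, 7.43 and 8.92 CPM at 72 h, 9.96, 11.2 and 7.93 CPM at 24 h and 7.91, 5.94 and 6.63 CPM in DMSO. Its 24 h libraries were all above DMSO, by 0.50 ± 0.17 (adjusted p = 0.183), and without 24 h replicate 3, the lowest of them, the value was 0.64 and passed (adjusted p = 0.0153), in a fit that called 10.8% of all genes. Without both libraries that stood apart, 8 members were called, 6 higher (NDUFA11, NDUFA13, NDUFB1, NDUFV1, ATP5F1D and ATP5MF) and 2 lower (SDHD and ATP5PB), beside 22.8% of all genes in that fit.

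NDUFA13, a complex I accessory subunit also known as GRIM-19, had 1.65, 1.70 and 2.24 CPM at 72 h, 3.26, 2.89 and 2.81 CPM at 24 h and 2.02, 2.08 and 1.06 CPM in DMSO. All 24 h libraries were above all others, on 56, 57 and 77 counts. The difference of 24 h from DMSO, 0.79 ± 0.28 (log2), was the largest of the 78 members and did not pass (adjusted p = 0.208). NDUFA12, an accessory subunit, had 42.5, 41.0 and 40.9 CPM at 72 h, 35.2, 36.9 and 29.2 CPM at 24 h and 37.4, 39.7 and 41.8 CPM in DMSO. Its 24 h libraries were the lowest (24 h against DMSO -0.23 ± 0.10, adjusted p = 0.327).

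The comparison of 72 h with 24 h of CDDO-Me shares its 72 h libraries with the first comparison above and its 24 h libraries with the second. With no vehicle group of 24 h, length of treatment and time in culture cannot be told apart in it. Here edgeR called no member, beside 1.02% of all genes (0.448% higher and 0.568% lower). Without adjustment 23 members were higher (5.75% of all genes) and 2 lower (ATP5F1D and NDUFA13), beside 13.2% of all genes in either direction. The median was 0.16, beside -0.0058 for all genes, and 70 of 78 members were above 0, beside 48.9% of all genes. In 37 members all 72 h libraries were above all 24 h libraries and in 2 below, beside 10.8% and 10.2% of all genes. The smallest adjusted p-values belonged to COX7A2 (0.33 ± 0.09, 0.105), UQCRQ (0.28 ± 0.08, 0.123) and ATP5MK (0.28 ± 0.08, 0.153). DESeq2 called COX7A2 and UQCRQ higher, beside 2.63% of all genes, and limma-voom called 0. With sample weights limma-voom called 23 higher and 2 lower, beside 19.5% of all genes. Leaving out 24 h replicate 3 gave 10 higher and 1 lower, ATP5F1D, beside 12.04% of all genes, and leaving out both libraries that stood apart gave 22 higher and 1 lower, beside 22.8%. In edgeR's fit of all 9 libraries, no change that passed at 72 h against DMSO was shown to differ from that at 24 h.

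Grouped by role over all complexes, the 17 core, catalytic and F1 genes had a median log2 fold change of 0.06 at 72 h with 2 called higher (SDHA and ATP5F1E), and the other 61 tested genes a median of 0.21 with 7 called higher. The shares called higher were close, 11.8% of the 17 and 11.5% of the 61, beside 2.89% of all genes. Relative to the DMSO mean, the 17 had medians of 0.07, 0.09 and 0.05 in the 72 h libraries, and the 61 had 0.19, 0.18 and 0.24. The difference between the role groups itself was not tested. Small proteins make up most of the accessory group, and over the 78 members the log2 fold change at 72 h fell as coding length grew, with a Spearman correlation of -0.58; these genes share libraries, and the value is a description. Over exon length the correlation was -0.34 in members and -0.14 in all 14965 genes, so length moved with the change in other genes as well; its part in the members' change was not tested beyond the values that follow. Within bins of exon length the members stood above the other genes: 0.29 against 0.03 under 1000 bases, 0.28 against 0.08 from 1000 to 2000, 0.14 against 0.03 from 2000 to 4000, 0.14 against -0.01 from 4000 to 8000, and 0.11 against -0.05 above, in bins of 8 to 30 members. With a trend over exon length removed in the fit, 5 of the 9 calls held (NDUFB2, SDHA, UQCRQ, COX6C and ATP5F1E) and the 4 others did not pass. These were COX5B (0.28, adjusted p = 0.0576), NDUFB4 (0.32, 0.0842), COX7A2 (0.28, 0.0984) and ATP5MK (0.24, 0.126). The bins and the fit used exon length only, so they do not bear on the relation with coding length. The medians were then 0.11 for complex I, 0.19 for II, 0.11 for III, 0.23 for IV and 0.14 for V.

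**Figure D3:**
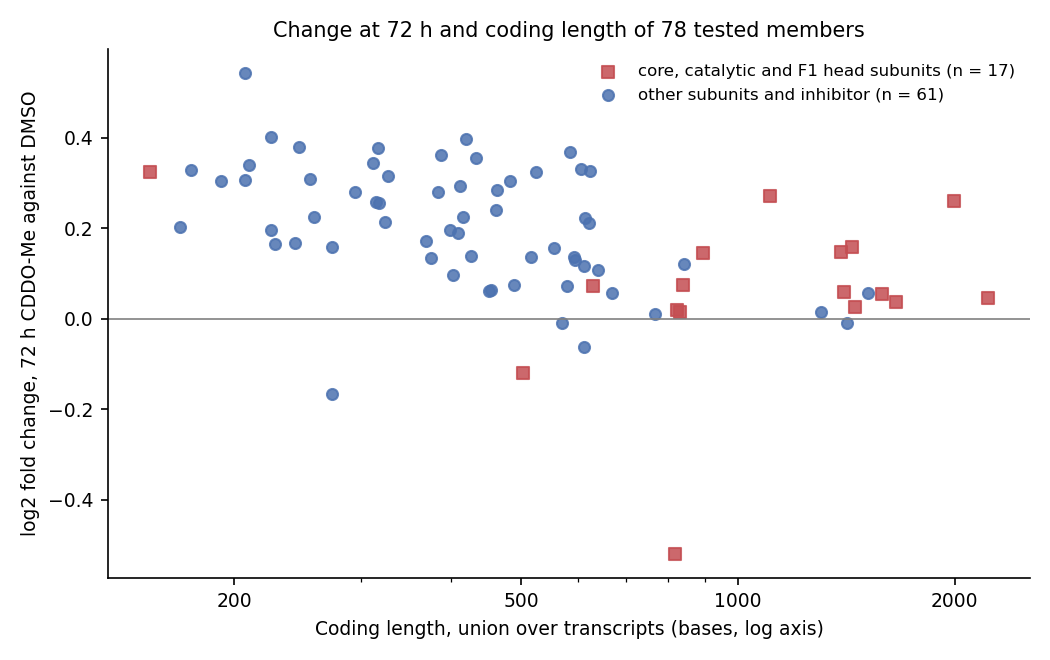
Log2 fold change of 72 h CDDO-Me against DMSO (vertical axis) by coding length in bases on a log axis (union over annotated transcripts) for the 78 tested members; squares are the 17 core, catalytic and F1 genes and circles the other 61. The longer members lie closer to 0, with medians of 0.06 for the squares and 0.21 for the circles, and the lowest square is NDUFV2 at -0.52.

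RefSeq promoter windows, 250 bases before to 50 after a start, were found for 65 of the 79 members and for 8 of the 9 called ones. The NRF1 motif was present in 16 of the 65 (24.6%), against 13.4% of 10974 tested genes with a window and 6.98% of all 27305 genes in the promoter table. The ETS motif was present in 21 (32.3%), against 22.2% of tested genes and 12.2% of all, and the YY1 motif AAGATGGC in 12 (18.5%), against 6.29% and 3.52%. The antioxidant response element TGACNNNGC, to which NRF2 binds, was present in 12 (18.5%), against 19.5% of tested genes and 16.1% of all. The TATAAA box was present in 6 (9.23%), against 8.42% and 14.0%. Among the 8 called members with a window, 2 held the NRF1 motif (SDHA and NDUFB4, printed above), 3 the ETS motif (COX5B, ATP5MK and UQCRQ, printed above) and 0 any of the other motifs. These shares, 25% for NRF1 and 37.5% for ETS, were close to the 24.6% and 32.3% of all members with a window. These counts are of letters in a window, and no share was tested.

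Length-scaled levels (CPM divided by the deposited gene length and scaled to the same total in each library) allow genes to be set side by side only roughly. The deposited length takes in all annotated exons, and it was 14160 bases for SDHC (614 coding) and 2838 for SDHD (592 coding). SDHC stood at 39.6 and SDHD at 62.2, though SDHC had the higher CPM. The order of genes and complexes therefore depends on the annotation too. Over the 9 libraries they had a median of 103 and ran from 0.952 for NDUFV2 to 1586 for ATP5F1B. COX8A (879.6) and NDUFS5 (865.5) came next to ATP5F1B. By complex, the medians over all members were 65.5 for I, 69.5 for II, 119 for III, 171 for IV and 115 for V. Their order was different among members with little exon overlap, whose medians are given below. Several of the lowest genes shared a feature of the annotation. In 12 members 50% or more of the coding bases also lie in exons of another row of the table, usually a read-through gene on the same strand. These were NDUFA7 and UQCR11 (100%), NDUFV2 (91.2%), NDUFB8 (85.1%), NDUFC2 (76.9%), NDUFA9 (70.1%), NDUFA13 (69.4%), ATP5PO (69.0%), COX8A (55.1%), NDUFS7 (54.7%), COX6A1 (53.5%) and SDHD (53.0%).

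The overlapping rows themselves held few reads: the one over NDUFV2 had 0 counts, the one over NDUFB8 0, the one over NDUFA7 a mean of 1.89 counts and the one over NDUFA13 a mean of 20.9. NDUFV2 had 5 to 24 counts per library, while its pseudogene row NDUFV2P1 had 755 counts over the 9 libraries, 87.2% of the reads of both. The overlap and the level had a Spearman correlation of -0.43 over the 79 members, as a description, and COX8A was high in spite of its overlap. The 60 members with under 5% overlap of coding bases had a median level of 127 and ran from 1.54 for UQCRHL. Of these 60, 8 were called higher at 72 h (13.3%, beside 2.89% of all genes), and the median log2 fold change was 0.17. Their noncoding exon bases can still overlap other genes. Of all exon bases, 20.8% in UQCRQ and 23.2% in ATP5F1E did so, and both genes are among the 8. By complex, their median levels were 114 for I (26 genes), 76.8 for II (3), 157 for III (8), 163 for IV (10) and 152 for V (13). How reads that fall in 2 genes were counted is not stated in the labels, and whether such reads were dropped was not tested. The low levels of NDUFV2, NDUFA7, NDUFA13 and NDUFB8 are therefore given as values of the table only.

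**Figure D4:**
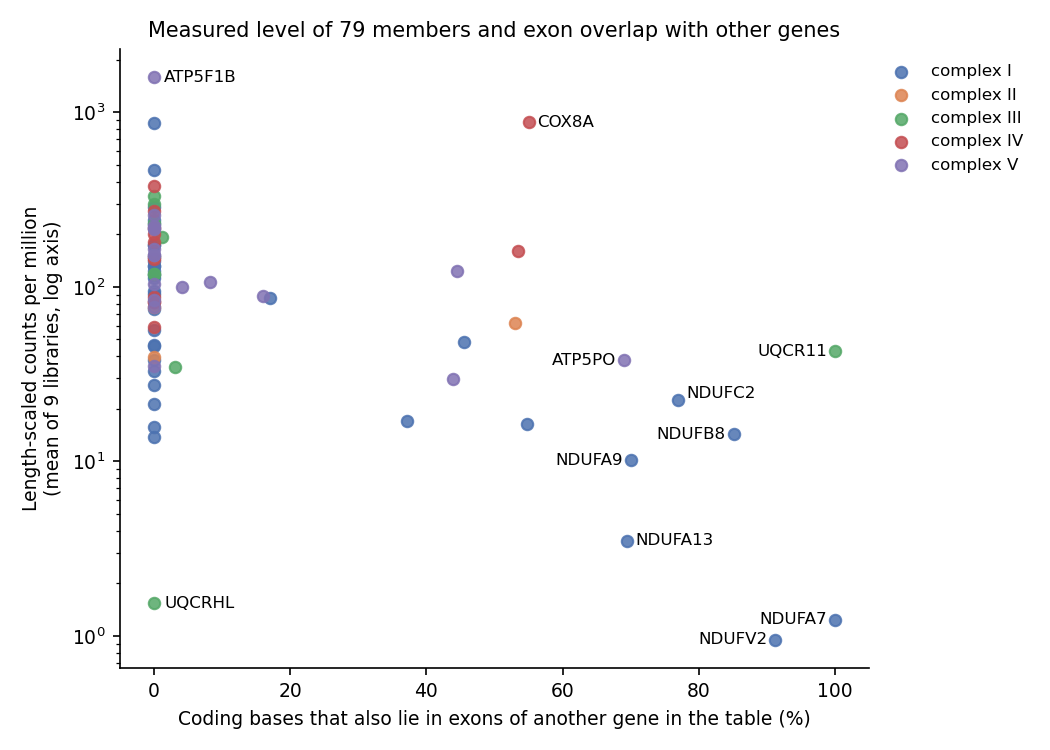
Mean length-scaled level (CPM) of each of the 79 members over 9 libraries (log axis) by the share of its coding bases, in percent, that also lie in exons of another gene of the table; colours give the complex. NDUFV2 and NDUFA7, with 91.2% and 100% overlap, lie lowest, and COX8A lies at 879.6 with 55.1% overlap.

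Other genes of the pathway were taken from lists. The subunit genes outside the symbol rule, NDUFAB1, CYC1, CYCS and NDUFA4L2, did not pass in any comparison: at 72 h NDUFAB1, the acyl carrier protein of complex I, was at 0.26 ± 0.11, the cytochrome c1 gene CYC1 at 0.17 ± 0.08, the cytochrome c gene CYCS at -0.07 ± 0.10 and NDUFA4L2, a paralog of NDUFA4, at 0.23 ± 0.28. Of 54 tested assembly factors 3 rose at 72 h (5.56%, beside 2.89% of all genes) and 0 fell, with a median of 0.14. COA6, a copper chaperone for complex IV, had 26.3, 26.8 and 26.9 CPM at 72 h, 16.2, 20.1 and 22.8 CPM at 24 h and 17.26, 16.67 and 16.98 CPM in DMSO. The log2 fold change of 0.65 ± 0.12 (adjusted p = 0.00426) was above that of every member and passed in all 9 fits without 1 library. SURF1, another assembly factor of complex IV, was at 0.42 ± 0.10 (adjusted p = 0.0174, up to 0.133 without 1 library) and NDUFAF8, of complex I, at 0.40 ± 0.11 (adjusted p = 0.0388, up to 0.219).

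The mitochondrial ribosome, which translates the mitochondrial partners of these subunits, had 4 of 77 genes higher (MRPL41, MRPL28, MRPL43 and MRPL51) and 0 lower at 72 h, with a median of 0.10 and log2 fold changes of 0.28 to 0.45 in the 4. These 4 are 5.19% of the 77, beside 2.89% of all genes higher. The call of each of them ended without at least 1 library. At 24 h, 1 of the 77 fell, beside 1.18% of all genes. This was MRPS24, at 6.84 ± 1.19 CPM, against 10.7 ± 0.779 CPM in DMSO (-0.64 ± 0.16, adjusted p = 0.0495, up to 0.194 without 1 library). It stood at 13.1 ± 1.47 CPM at 72 h, higher than at 24 h (0.93 ± 0.16, adjusted p = 0.00979, up to 0.0889 without 1 library). The tricarboxylic acid cycle and pyruvate dehydrogenase feed the chain with NADH and succinate. Of their 18 genes edgeR called 0 at 72 h, beside 6.02% of all genes in either direction, and their median was 0.0055. At an unadjusted p under 0.05 there was 1, beside 18.6% of all genes. The cytosolic ribosome had 1 of 79 higher (1.27%, beside 2.89% of all genes) and a median of 0.04. The gene called was RPS27 (0.31 ± 0.08, adjusted p = 0.036, up to 0.168 without 1 library).

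Of 16 tested regulators of mitochondrial gene expression and mitochondrial DNA, 2 fell at 72 h and 0 rose, beside 3.13% and 2.89% of all genes. The median was -0.07, and 14 of the 16 were below 0. The highest log2 fold change of the list was 1.37, which did not pass. PPRC1, a coactivator of the PGC-1 family, had 95.1, 94.8 and 95.5 CPM at 72 h, 132.5, 121.2 and 131.6 CPM at 24 h and 139.9, 138.4 and 123.3 CPM in DMSO. All 72 h libraries were below all others, and the 24 h and DMSO libraries overlapped. PPRC1 stood at -0.49 ± 0.07 at 72 h against DMSO (adjusted p = 0.000978, passing in all 9 fits without 1 library) and -0.43 ± 0.07 at 72 h against 24 h (adjusted p = 0.0105, passing in 6 of 9). TWNK, the mitochondrial DNA helicase, had 27.1, 25.9 and 27.4 CPM at 72 h, 32.8, 31.5 and 32.5 CPM at 24 h and 37.6, 33.1 and 33.0 CPM in DMSO (-0.37 ± 0.09, adjusted p = 0.0279, up to 0.150 without 1 library). The transcription factor genes NRF1, GABPA and YY1 were at 0.09 ± 0.13, -0.08 ± 0.10 and -0.11 ± 0.07, TFAM at -0.06 ± 0.11, and none of these 4 passed. PPARGC1A, the gene of PGC-1alpha, was near the detection floor at 0.624 ± 0.209 CPM at 72 h, 0.485 ± 0.317 CPM at 24 h and 0.238 ± 0.212 CPM in DMSO.

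**Figure D5:**
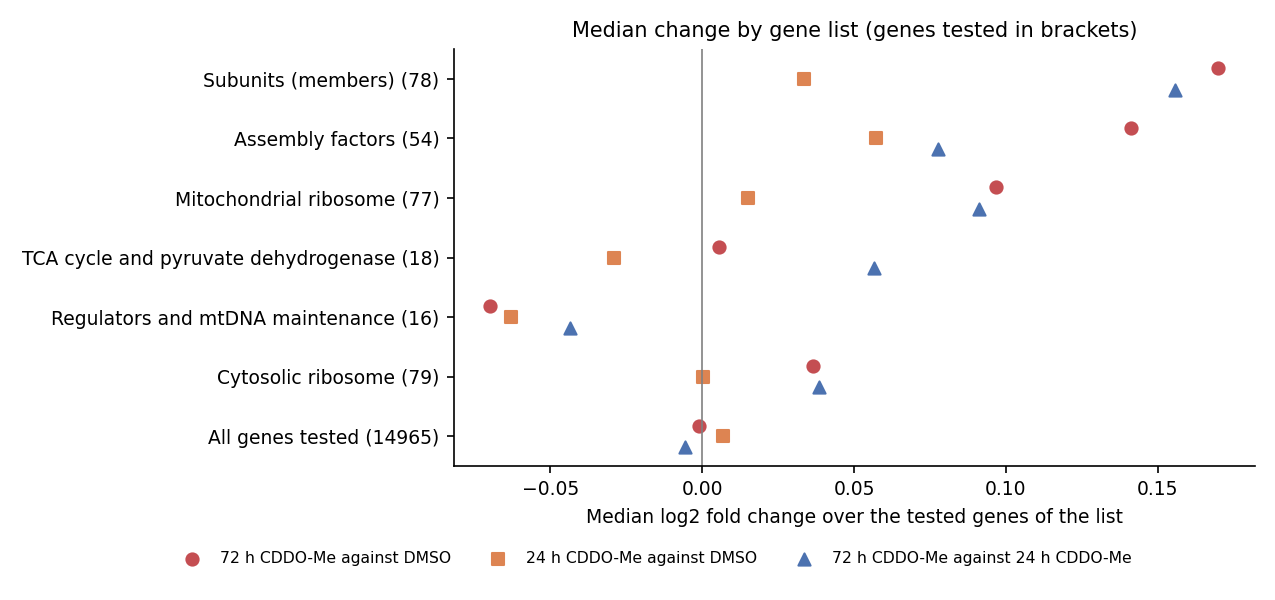
Median log2 fold change over the tested genes of each list, with the number of genes in brackets, for 72 h CDDO-Me against DMSO (circles), 24 h CDDO-Me against DMSO (squares) and 72 h against 24 h CDDO-Me (triangles), which share libraries. The subunits stand at 0.17, 0.03 and 0.16, the regulators at -0.07, -0.06 and -0.04, and all genes tested close to 0.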

How the data were processed

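Polyadenylated RNA of 9 AC16 samples was sequenced from unstranded libraries, per the labels' protocols. The authors deposited whole-number counts per gene with gene coordinates and lengths; STAR, featureCounts, Subread and SAMtools, with the builds GRCh38 and hg38, appear in the submitters' processing notes, with no versions. The annotation release, and how reads that fall in several genes were counted, are not stated there. Of 58299 gene IDs, 57717 were in the table of gene names and 58179 in GENCODE 29 (57393 with the same start and end), which gave gene types and coding exons. Groups came from the labels, and no count column was left unused.

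Counts were tested with edgeR 4.0.16 in R 4.3.3 (TMM scaling, filterByExpr, robust quasi-likelihood fit of 3 group means over 9 libraries, 6 residual degrees of freedom, biological coefficient of variation 11.5%), with Benjamini-Hochberg adjustment over 14965 genes and calls at an adjusted p under 0.05. Levels in CPM use the TMM-scaled library sizes; values after ± are SD over 3 libraries for CPM and SE for log2 fold changes, each SE was derived from the log2 fold change and its F statistic. Alternatives were DESeq2 1.42.0, limma 3.58.1 (voom, with and without sample weights), other scalings and filters, fits of the 2 groups compared, a replicate block, a length trend as offset, and fits without 1 or 2 libraries. The test was also run on simulated counts. No library was made to stand apart in them, so that run does not bear on such libraries.

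No pair of libraries was identical, and the replicate number did not pair libraries. Members and lists were chosen with earlier results of these data known. Named members are, per complex and comparison, the called ones with the smallest adjusted p (up to 3, otherwise the 1 smallest), the highest and lowest in length-scaled level, the strongest in the opposite direction, those with a tissue-restricted partner and all of complex II; others are named where a count or an unadjusted test singled them out after their values were seen.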

Additional observations from a re-analysis of the deposited data

How the results depend on the processing

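The median log2 fold change of the members kept its sign in all 19 alternatives: 0.14 to 0.22 for 72 h against DMSO, 0.0099 to 0.06 for 24 h against DMSO and 0.13 to 0.17 for 72 h against 24 h; without 1 library the ranges were 0.16 to 0.22, 0.01 to 0.06 and 0.14 to 0.16, the highest at 72 h being that without DMSO replicate 3 (0.22). The number of members called moved more. Percentages in brackets are the share of all genes called in the same fit, in either direction. For 72 h against DMSO (9 in the edgeR fit as reported, 6.02%) it was 16 with no filter on low counts (4.21%), 34 with limma-voom and sample weights (17.3%), 24 with only the 2 groups compared (12.2%), 5 with the length offset (5.38%), 29 without both libraries that stood apart (17.9%) and 0 to 27 without 1 library (2.61% to 12.9%); DESeq2 called 12 (8.05%) and limma-voom 9 (5.35%). For 24 h against DMSO (0, 2.15%) it was 1 with sample weights (11.1%), 8 without both libraries (22.8%) and 0 to 1 without 1 library (0.875% to 10.8%). For 72 h against 24 h (0, 1.02%) it was 1 with no filter (1.71%), 2 with DESeq2 (2.63%), 25 with sample weights (19.5%), 23 without both libraries (22.8%) and 0 to 11 without 1 library (0.208% to 12.04%). The cause of these moves was not tested, except that fits without a library hold fewer samples. Of the named members, none called in the reported fit changed sign. Uncalled members near 0 did, for 72 h against DMSO: with the length offset ATP5F1B (-0.0078), ATP5PB (-0.016) and NDUFA12 (-0.012), with sample weights COX5A (0.0048), and without both libraries ATP5PB (-0.056) and COX5A (0.025). Without 1 library the value ran from -0.052 to 0.11 for ATP5PB, from -0.039 to 0.028 for COX5A, from -0.14 to 0.28 for NDUFA13 and from -0.43 to 0.20 for UQCRHL. Libraries with the same replicate number did not deviate together (correlations of deviations -0.02 to 0.10), so the number is not a pairing; with a replicate block 10 members were called for 72 h against DMSO (6.435%) and 0 in each other comparison. Values of NDUFV2, NDUFA7 and UQCRHL rest on few counts, 24 or fewer in each library, and the reason for these low counts was not tested.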
